A study of Mus musculus with 8 samples.

Results

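Gpsm2 and 7 genes whose proteins act with it to orient the mitotic spindle were examined in costal chondrocytes, the cartilage cells of the rib cage. They are 8 of the 52325 gene identifiers in the table: Gpsm2, its paralog Gpsm1, Numa1, the inhibitory G protein genes Gnai1, Gnai2 and Gnai3, and the scaffold and polarity genes Dlg1 and Pard3. Gpsm2 was picked because its values in the comparison of genotypes were known to lie apart, and the other 7 were picked as partners of its protein. Its difference between genotypes, and those of its partners, are therefore given as a description, with no test.

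RNA was sequenced from 4 Mir324-null mice, which lack the microRNA gene Mir324, and from 4 wild-type (WT) mice. Each library came from a separate animal, whose rib cartilage cells were freed with collagenase and were not treated further. The labels give no strain, age or sex, and no account of how the null allele was made. The comparison asks which transcripts differ in chondrocytes that lack this microRNA.

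The protein encoded by Gpsm2, also called LGN, is an adaptor. Its GoLoco motifs bind inhibitory G protein alpha subunits that are lipid-anchored at the cell cortex, and its other end binds NUMA1, which brings in the motor dynein to pull on astral microtubules and so turns the spindle. In growth plate cartilage, oriented division and the rearrangement of daughter cells that follows it are known to build columns of chondrocytes.

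The lost microRNA yields a pair of mature forms, shown here because their seeds (bases 2 to 8, in capitals) set which sites can be sought in the spindle orientation transcripts. The sequences are those of RefSeq (GRCm38.p6), and they lie on the plus strand at chr11:70012060-70012082 for the 5p form and chr11:70012095-70012114 for the 3p form.
mmu-miR-324-5p: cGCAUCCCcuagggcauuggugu
mmu-miR-324-3p: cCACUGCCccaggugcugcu

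Sites of 7 bases that pair with these seeds were sought on the sense strand of the longest annotated 3′ UTR of each gene (GENCODE M21, GRCm38). The 5p site, GGGATGC, was in 0 of the 8 transcripts, while 9.37% of the 11314 tested protein-coding genes with a 3′ UTR held it. The 3p site, GGCAGTG, was in 3 of the 8, and 17.6% of the same genes held it. These are shown, with the site in capitals, because they are the only matches among the 8 transcripts.
Gnai2: ggGGCAGTGgacctggcagg
Dlg1, first site: gtagcaatcatGGCAGTGggaaggagtcc
Dlg1, second site: cactgtcacacGGCAGTGatgagtgtctt
Pard3: gtaatctgggaGGCAGTGttttctctccc

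The Gnai2 site lies at chr9:107615626-107615632 on the minus strand, at bases 3 to 9 of a UTR of 997 bases, next to the stop codon. The Dlg1 sites lie at chr16:31872539-31872545 and chr16:31874062-31874068 on the plus strand, in a UTR of 3348 bases. The Pard3 site lies at chr8:127400657-127400663 on the plus strand, in a UTR of 2172 bases, and is in the UTR of 4 of the 14 Pard3 transcripts examined. It lies well short of the end of the gene, at 127612286. A 3p site was in the UTR of 2 of the 3 Gnai2 transcripts and 5 of the 8 Dlg1 transcripts examined. Among genes with a UTR within 20% of the same length, 10.9% held the 3p site for Gnai2, 31.1% for Dlg1 and 23.8% for Pard3. The 3′ UTR of Gpsm2, 941 bases in 1 transcript, held neither string; among 1458 genes with a UTR of like length, 5.83% held the 5p site and 10.6% the 3p site. A match is only a string of letters, and binding was not measured.

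Values are named length-scaled TPM by the authors and have a fixed total of 1000000 a library. They were read as TPM, which are scaled for transcript length so that levels can be compared between genes. That reading was not checked, and comparisons of level between genes rest on it. The values keep no record of sequencing depth, which is unknown here. Mir324 itself was listed at 0 TPM in all 8 libraries, so the genotype labels had no check in these data. Chondrocyte markers summed to between 40570 and 54940 TPM in Mir324-null libraries and between 43330 and 53450 TPM in WT libraries, over the 9 of 10 listed that were found. Mir324-null replicate 3 stood apart, with a mean Spearman correlation of 0.864 with the other libraries, where the next lowest library had 0.895. The Xist transcript of the inactive X exceeded 1 TPM in Mir324-null replicates 1 and 2 and in WT replicates 1, 3 and 4, and summed Y-linked genes were between 70.7 and 138 TPM in the other 3 libraries. Of 13910 genes with at least 1 TPM in 4 or more libraries, 3 passed limma's test of genotype at an adjusted p of 0.05 (0.0216%), and no spindle orientation gene was among them; none of the 3 encodes a protein.

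**Figure D1:**
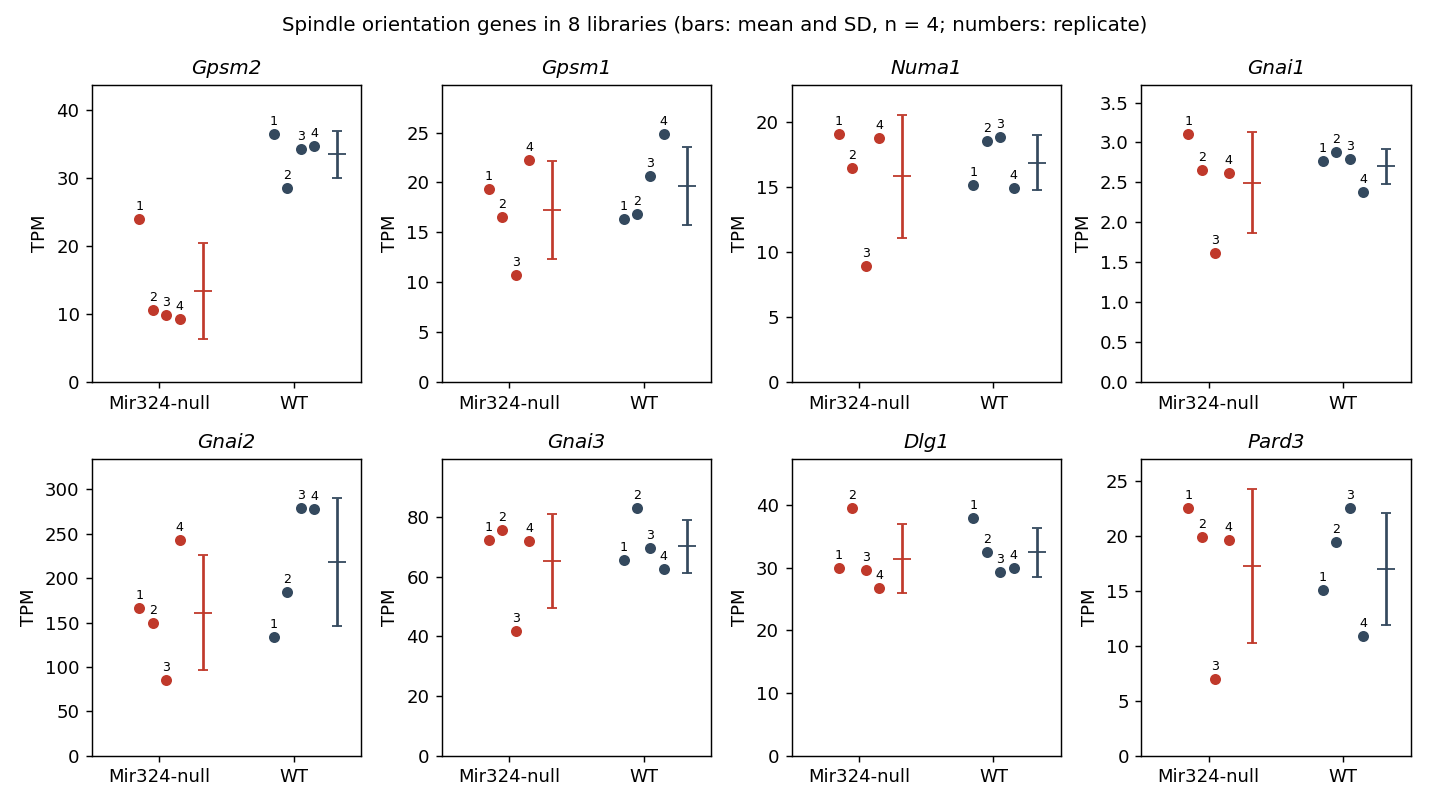
TPM of the 8 spindle orientation genes in each library, with the replicate number at each point and bars for the mean and SD of 4 libraries a group; each panel has its own axis from 0. The Gpsm2 points of the Mir324-null libraries, 9.31 to 24.0 TPM, lie below those of the WT libraries, 28.5 to 36.4 TPM, while the points of the 2 groups overlap in the other 7 panels.

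Gpsm2 (ENSMUSG00000027883, chr3:108678638-108722309, minus strand) stood at 24.0, 10.6, 9.80 and 9.31 TPM in Mir324-null replicates 1 to 4, against 36.4, 28.5, 34.3 and 34.7 TPM in WT replicates 1 to 4. The groups did not overlap, and 3 of the 4 Mir324-null libraries lay close together near 10 TPM while replicate 1 lay between them and WT. The mean was 13.4 ± 7.05 TPM in Mir324-null and 33.5 ± 3.43 TPM in WT (SD, n = 4 each), a ratio of 0.400. On the scale of log2(TPM + 1), which understates the change of low genes, the difference was -1.36 with a standard error of 0.28.

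The spread of Gpsm2 also differed in size between the groups, with a coefficient of variation of 52.6% in Mir324-null libraries and 10.2% in WT libraries. Mir324-null replicate 1 carried much of that spread. Left out, it gave a log2 fold change of -1.66, and that is the only one of 14 alternative settings in which Gpsm2 passed limma's test over all genes; a gene chosen from the same contrast gains no support from that call. Leaving out Mir324-null replicate 3, the library that stood apart, gave -1.26 with a standard error of 0.30. Among the 5 libraries with Xist, Gpsm2 was at 24.0 and 10.6 TPM in Mir324-null and at 36.4, 34.3 and 34.7 TPM in WT, a log2 fold change of -1.09. Among the 3 others it was at 9.80 and 9.31 TPM in Mir324-null and at 28.5 TPM in the only WT library of this kind. That split was made after the data were seen, and since no Mir324-null value of Gpsm2 reaches a WT value, any split shows the groups apart.

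Within its own library, Gpsm2 lay higher than 51.6% to 73.5% of the tested genes in Mir324-null and higher than 76.1% to 81.1% in WT. This ranking does not depend on the fixed total of each library, though it does depend on the scaling for transcript length. Of 8875 tested genes with a mean of at least 5 TPM, 110 had a log2 fold change below that of Gpsm2. Groups that did not overlap were seen for 1 of the 8 spindle orientation genes, Gpsm2, and for 2.68% of all tested genes; those lower in Mir324-null made up 1.70%. Gpsm2 was chosen from this contrast, so nothing is read from that count.

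Gpsm1 (ENSMUSG00000026930, chr2:26315515-26348237, plus strand) encodes AGS3, the paralog of LGN, which carries the same TPR repeats and GoLoco motifs. It stood at 19.3, 16.6, 10.7 and 22.2 TPM in Mir324-null replicates 1 to 4, against 16.3, 16.9, 20.6 and 24.8 TPM in WT replicates 1 to 4. The groups overlapped over most of their range, and the lowest value was that of Mir324-null replicate 3. The log2 fold change was -0.21 with a standard error of 0.24, and -0.01 without Mir324-null replicate 3.

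Numa1 (ENSMUSG00000066306, chr7:101934111-102014964, plus strand), whose protein links LGN to dynein, stood at 19.1, 16.5, 8.94 and 18.8 TPM in Mir324-null replicates 1 to 4, against 15.2, 18.6, 18.9 and 14.9 TPM in WT replicates 1 to 4. Apart from the low value of Mir324-null replicate 3, the Mir324-null libraries lay within or just above the WT range. The log2 fold change was -0.13 with a standard error of 0.24, and 0.10 without that library.

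The inhibitory G protein alpha subunits, the cortical anchors of LGN, were expressed at very different levels. Gnai2 (ENSMUSG00000032562, chr9:107614125-107635367, minus strand) stood at 166.5, 149.7, 85.7 and 242.9 TPM in Mir324-null replicates 1 to 4, against 133.7, 184.0, 278.8 and 278.3 TPM in WT replicates 1 to 4. The WT libraries alone spanned more than the difference of the means, which were 161.2 ± 64.7 TPM in Mir324-null and 218.7 ± 72.1 TPM in WT (SD, n = 4 each). The log2 fold change was -0.47 with a standard error of 0.35, and -0.20 without Mir324-null replicate 3.

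Gnai3 (ENSMUSG00000000001, chr3:108107280-108146146, minus strand) lies 532 kb from Gpsm2 on the same chromosome. It stood at 72.2, 75.6, 41.8 and 71.9 TPM in Mir324-null replicates 1 to 4, against 65.6, 83.0, 69.5 and 62.7 TPM in WT replicates 1 to 4. Mir324-null replicate 3 was low and the other 3 Mir324-null libraries lay inside the WT range. The log2 fold change was -0.13 with a standard error of 0.20, and 0.07 without that library.

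Gnai1 (ENSMUSG00000057614, chr5:18265135-18360355, minus strand) was the lowest of the 8 genes, at 3.10, 2.66, 1.61 and 2.62 TPM in Mir324-null replicates 1 to 4, against 2.76, 2.87, 2.79 and 2.38 TPM in WT replicates 1 to 4. Its log2 fold change was -0.10 with a standard error of 0.17. Gnai2 made up 65.7% to 76.5% of the summed TPM of the 3 subunit genes in Mir324-null libraries and 66.2% to 81.0% in WT libraries. Gnai1 made up at most 1.28% in Mir324-null and 1.37% in WT, so the make-up of this group overlapped between genotypes.

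Dlg1 (ENSMUSG00000022770, chr16:31663443-31875129, plus strand), a cortical scaffold that binds the phosphorylated linker of LGN, stood at 30.0, 39.5, 29.6 and 26.8 TPM in Mir324-null replicates 1 to 4, against 37.9, 32.5, 29.2 and 30.0 TPM in WT replicates 1 to 4. The groups overlapped, and for this gene Mir324-null replicate 3 was not the lowest library. The log2 fold change was -0.05 with a standard error of 0.15. Pard3 (ENSMUSG00000025812, chr8:127063893-127612286, plus strand), the polarity scaffold that reaches LGN through inscuteable, stood at 22.5, 19.8, 6.92 and 19.6 TPM in Mir324-null replicates 1 to 4, against 15.1, 19.4, 22.5 and 10.9 TPM in WT replicates 1 to 4. It varied widely within each group, and its log2 fold change of -0.05 (standard error 0.37) was 0.31 without Mir324-null replicate 3. Dlg1 and Pard3 are, with Gnai2, the genes with a 3p site shown above; their groups overlapped, as did those of most tested genes, so nothing is read from this about the site.

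**Figure D2:**
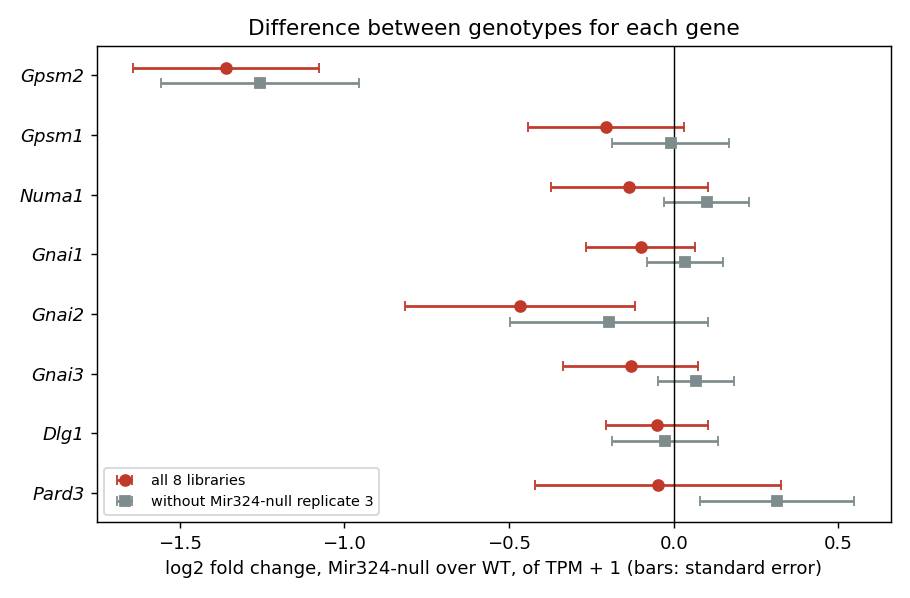
Log2 fold change of TPM + 1, Mir324-null over WT, for each gene, with bars for the standard error; circles use all 8 libraries and squares leave out Mir324-null replicate 3. Gpsm2 lies at -1.36 and -1.26, while the 7 partners lie between -0.47 and -0.05 with all libraries and between -0.20 and 0.31 without that replicate.

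All 8 log2 fold changes were negative with all libraries, with a median of -0.13, beside a median of -0.05 over all tested genes, of which 5551 were positive and 8359 negative. Mir324-null replicate 3 was the lowest library for 6 of the 8 genes. Without it 4 were positive and 4 negative, and the median over all tested genes was 0.02. Scaling the libraries by the median of ratios instead gave -1.31 for Gpsm2, with a median of -0.01 over all tested genes.

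Gpsm2 was also set against other transcripts of the same library, as a description that reuses the values it was chosen for. The ratio of Gpsm2 to Gpsm1 was 1.24, 0.637, 0.915 and 0.418 in Mir324-null replicates 1 to 4, against 2.23, 1.69, 1.66 and 1.40 in WT replicates 1 to 4. The ratio of Gpsm2 to Numa1 was 1.26, 0.640, 1.10 and 0.495 in Mir324-null, against 2.40, 1.54, 1.82 and 2.32 in WT. The ratio of Gpsm2 to Dlg1 was 0.799, 0.267, 0.332 and 0.348 in Mir324-null, against 0.960, 0.877, 1.17 and 1.16 in WT. Gpsm2 exceeded Gpsm1 in 1 of 4 Mir324-null libraries and in 4 of 4 WT libraries, and the low ratios of Mir324-null follow from the Gpsm2 values. The ratio of Gpsm1 to Numa1, which leaves Gpsm2 out, was 1.10 ± 0.105 in Mir324-null and 1.18 ± 0.328 in WT (SD, n = 4 each). Against the summed G protein subunit genes, the highest Mir324-null library, at 0.0991, reached past the lowest WT library, at 0.0977.

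Since the tissue is cartilage, Gpsm2 was also set against the summed chondrocyte markers, mostly Col2a1 (mean 38600 TPM over 8 libraries). Per 10000 TPM of these markers it stood at 4.36, 2.29, 2.42 and 1.86 TPM in Mir324-null replicates 1 to 4, against 6.81, 6.58, 6.61 and 6.65 TPM in WT replicates 1 to 4. The WT libraries lay close together on this scale, with a mean of 6.66 ± 0.102, and the Mir324-null mean was 2.73 ± 1.11 (SD, n = 4 each). These are bulk samples, in which fewer cells of a type and less RNA per cell cannot be told apart.

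Spindle orientation takes place in mitosis, so Gpsm2 was compared with 16 markers of dividing cells. Their summed TPM was 77.5, 59.1, 70.4 and 75.5 in Mir324-null replicates 1 to 4. In WT replicates 1 to 4 it was 101.9, 37.2, 102.6 and 81.9. WT replicate 2 lay below every Mir324-null library, and the other WT libraries lay above them all. Log2 fold changes were positive for 5 and negative for 10 of the 15 tested, with a median of -0.15. None passed limma's test, beside 3 of all 13910 tested genes. An unadjusted limma p under 0.05 was found for 1 of the markers, and for 577 of all tested genes. The marker with the highest mean was the mitotic kinase gene Cdk1, at 15.8, 10.5, 14.6 and 12.3 TPM in Mir324-null replicates 1 to 4, against 19.2, 5.71, 12.8 and 13.5 TPM in WT replicates 1 to 4. In Mir324-null, Gpsm2 averaged 13.4 TPM and Cdk1 13.3 TPM, and Gpsm2 was below Cdk1 in replicates 3 and 4, whereas in WT it was above Cdk1 in all 4 libraries. Gpsm2 exceeded 13 of the 16 markers in every library. The ratio of Gpsm2 to the summed markers was 0.309, 0.179, 0.139 and 0.123 in Mir324-null replicates 1 to 4, against 0.357, 0.767, 0.334 and 0.424 in WT replicates 1 to 4.

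**Figure D3:**
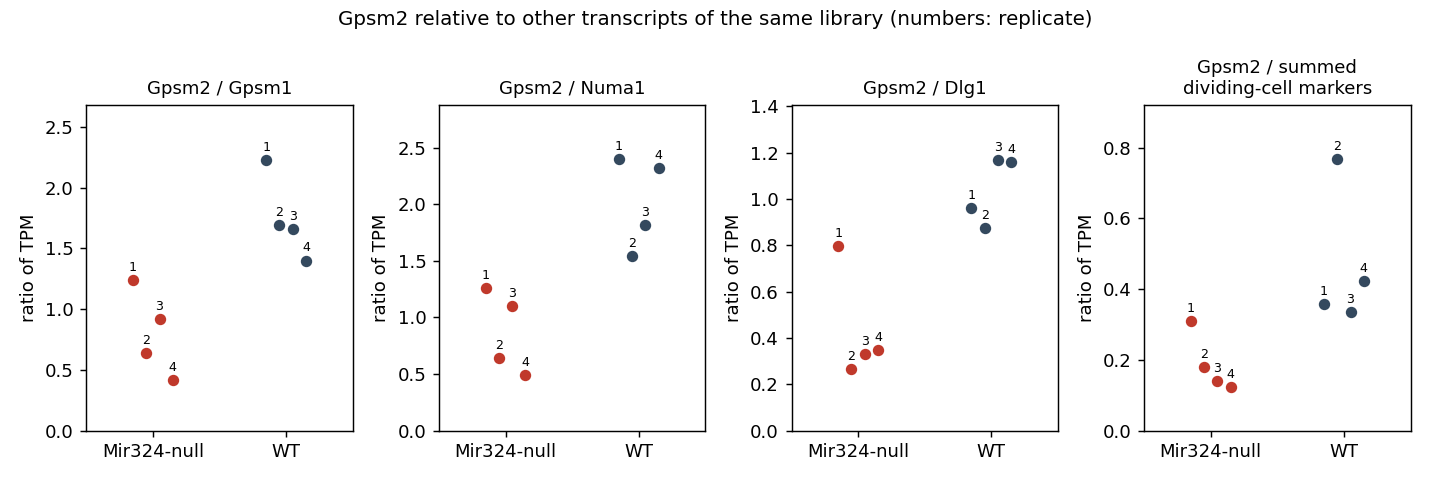
Ratio of the TPM of Gpsm2 to that of Gpsm1, Numa1, Dlg1 and the summed markers of dividing cells in each library, with the replicate number at each point and axes from 0. Every Mir324-null point lies below every WT point in all 4 panels; in the last, Mir324-null replicate 1, at 0.309, is nearest to WT replicate 3, at 0.334.

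Markers of other cells were read beside these values. The 4 endothelial markers summed to 16.2, 19.1, 21.1 and 18.0 TPM in Mir324-null replicates 1 to 4, against 6.66, 8.07, 16.2 and 7.12 TPM in WT replicates 1 to 4. The sums of the groups all but met, at 16.2 TPM in Mir324-null replicate 1 and in WT replicate 3. All 4 had positive log2 fold changes, with a median of 0.82, and 0 passed limma's test after adjustment, beside 3 of all 13910 tested genes. An unadjusted limma p under 0.05 was found for 3 of the 4, and for 577 of all 13910 tested genes. Groups did not overlap for 1 of the 4, Vwf, and for 2.68% of all tested genes. WT replicate 3, with 16.2 TPM of endothelial markers, had 34.3 TPM of Gpsm2, but this is 1 library and nothing is read from it. Myeloid markers summed to 15.1 to 25.1 TPM in Mir324-null and 16.5 to 22.6 TPM in WT, with Ptprc, the pan-leukocyte gene, at no more than 0.132 TPM. Skeletal muscle markers summed to 0.558 to 2.16 TPM in Mir324-null and 0.354 to 1.34 TPM in WT, with Myh4 listed at 0 in all 8. Osteoblast markers (190.9 to 633.3 TPM in Mir324-null, 133.1 to 1075 TPM in WT), fibroblast markers (562.7 to 943.1 TPM in Mir324-null, 579.7 to 1078 TPM in WT) and erythroid markers (117.8 to 507.8 TPM in Mir324-null, 59.9 to 566.6 TPM in WT) also overlapped between groups. The part of these cells in the Gpsm2 values was not tested.

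The order of the 8 transcripts by level was not used to choose them. It was set by their means over the same 8 libraries in which neighbouring pairs were then tested. The pairs and their directions were therefore known before the test. Both pairs that hold Gpsm2 reuse the values it was chosen for. From high to low the means over 8 libraries were 189.9 TPM for Gnai2, 67.8 for Gnai3, 31.9 for Dlg1, 23.4 for Gpsm2, 18.4 for Gpsm1, 17.1 for Pard3, 16.4 for Numa1 and 2.60 for Gnai1. The difference between each of the 7 neighbouring pairs in log2(TPM + 1) was put to a two-sided exact sign-flip permutation test, with Benjamini-Hochberg adjustment over the 7. Gnai2 exceeded Gnai3 by 1.40 ± 0.48, in 8 of 8 libraries (SD, n = 8; exact p = 0.00781, adjusted p = 0.0182). Gnai3 exceeded Dlg1 by 1.05 ± 0.31, and Numa1 exceeded Gnai1 by 2.25 ± 0.17, each in 8 of 8 libraries (SD, n = 8; exact p = 0.00781, adjusted p = 0.0182 each). A p of 0.00781 is the smallest that 8 libraries can give.

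Among the 5 genes in the middle of the order, no neighbouring pair was separated. Dlg1, at 26.8 TPM or more, lay above every value of Gpsm1 (at most 24.8 TPM), Pard3 (22.5 TPM) and Numa1 (19.1 TPM). Those pairs are not neighbours and were not tested. Dlg1 exceeded Gpsm2 in 6 of 8 libraries by 0.61 ± 0.83 (SD, n = 8; exact p = 0.102, adjusted p = 0.178), and Gpsm2 exceeded Gpsm1 in 5 of 8 by 0.18 ± 0.76 (SD, n = 8; exact p = 0.516, adjusted p = 0.602). The spread of both differences takes in the 2 genotypes, since Gpsm2 ranked 7 of 8 by mean level in Mir324-null and 3 of 8 in WT. Gpsm1 exceeded Pard3 by 0.15 ± 0.48 and Pard3 exceeded Numa1 by 0.01 ± 0.26, with an adjusted p of 0.602 and of 0.922 (SD, n = 8; exact permutation test).

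**Figure D4:**
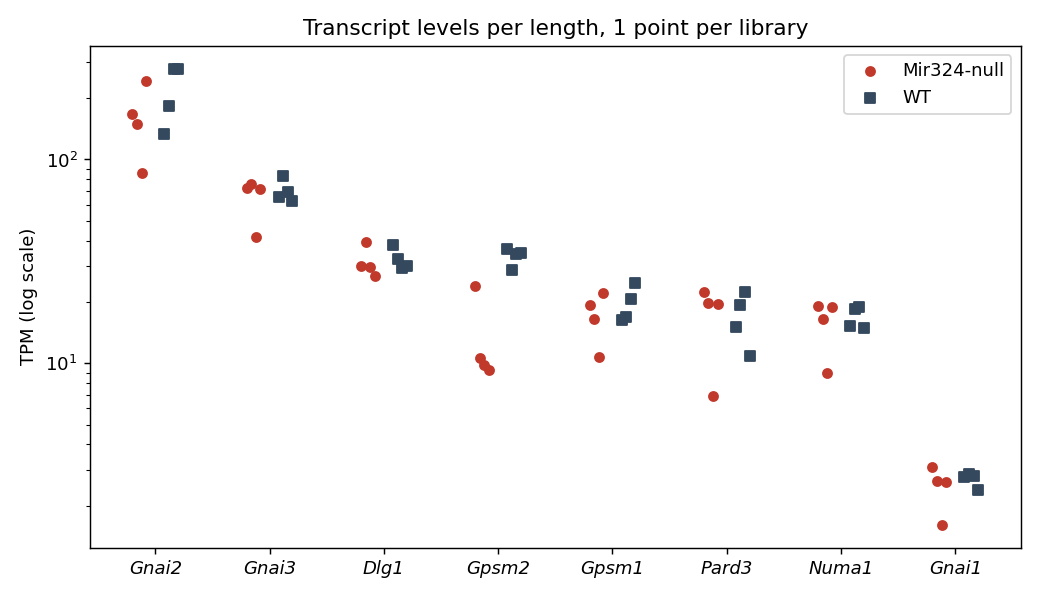
TPM on a log axis for each gene, ordered by its mean over 8 libraries, with 1 point per library and Mir324-null points left of WT points. Gnai2, Gnai3 and Gnai1 stand clear of their neighbours, the other 5 genes lie mostly between 7 and 40 TPM, and Gpsm2 is the gene whose Mir324-null and WT points separate.

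Over the 8 libraries the partners followed Gpsm2 loosely. Pearson correlations of log2(TPM + 1) with Gpsm2 were between 0.12 for Dlg1 and 0.48 for Gnai1, and without Mir324-null replicate 3 they were between -0.38 for Gnai3 and 0.12 for Gnai1. Some partners varied together: Gpsm1 and Gnai2 had a correlation of 0.94, which was 0.87 without that replicate, and Numa1 and Pard3 had the same pair of values. For Numa1 and Gnai3 it was 0.94 with that replicate and 0.63 without it. These correlations describe libraries that share an assay and genotypes, and no test was made of them.

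Of 7566 tested protein-coding genes with a mean of at least 5 TPM, those most like Gpsm2 across the 8 libraries were Uxs1, Stx11, Cmtm7, Tlr2 and Cetn2, with Pearson correlations of 0.95, 0.94, 0.93, 0.93 and 0.92. Uxs1 encodes the enzyme that makes the UDP-xylose used to start glycosaminoglycan chains, Stx11 a syntaxin, Tlr2 a toll-like receptor and Cetn2 a centrin of centrioles. The correlation sets high and low libraries side by side and does not see size: Stx11 was at 14.2, 11.9, 9.90 and 11.7 TPM in Mir324-null replicates 1 to 4, against 18.8, 15.9, 16.0 and 16.1 TPM in WT replicates 1 to 4. Tlr2 was at 101, 78.6, 89.8 and 87.9 TPM in Mir324-null, against 117, 115, 112 and 108 TPM in WT. Both had Mir324-null replicate 1 as the highest of its group, as Gpsm2 did, but their log2 fold changes were -0.46 and -0.34, and neither passed limma's test (adjusted p = 0.981 each). The most opposite were Usp4 at -0.96, Ptprk at -0.94, Pigo at -0.94, Eif3f at -0.91 and Fam71f2 at -0.90. With the group means taken out, the correlations of the 5 most alike were between 0.66 and 0.83. These genes were picked as the highest of 7566 over the same 8 libraries, so high values within groups follow in part from the choice. Nothing is read from them about a link with Gpsm2.

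Around Gpsm2 on chromosome 3, the flanking genes were read for a difference shared by the region. Clcc1, on the plus strand at chr3:108653913-108678840, overlaps the 3′ end of Gpsm2 by 203 bases, and no source used here states if counting kept the strands apart, so that stretch of sequence may be shared by both genes. Clcc1, a chloride channel gene, stood at 22.3, 29.4, 14.2 and 27.3 TPM in Mir324-null replicates 1 to 4, against 30.7, 23.5, 19.3 and 22.1 TPM in WT replicates 1 to 4, a log2 fold change of -0.06. The antisense model Gm27244, which overlaps Gpsm2 by 3746 bases, was listed at 0 in all 8 libraries. Below Gpsm2 in coordinate, Wdr47 (32.9 kb away) and the transcription factor IID subunit gene Taf13 (95.4 kb) had -0.07 and 0.11. Above it, the syntaxin-binding gene Stxbp3 (70.9 kb) had -0.39, with its lowest value, 3.44 TPM, in Mir324-null replicate 3, and the pseudogene Gm43097 had 0.12. Each of these 5 genes had groups that overlapped. Groups did not overlap for only 2.68% of all tested genes, so nothing is read from this about the region.

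The wider machinery was read from 5 lists holding 123 other genes, of which 105 were tested. Of these, 0 passed limma's test in either direction and the smallest adjusted p was 0.981. The share over all tested genes was 3 of 13910 (0.0216%), so nothing is read from this count about the machinery. An unadjusted p under 0.05 was found for 3 of the 105 and for 577 of all 13910 tested genes. Log2 fold changes were positive for 38 and negative for 67, with a median of -0.09, and without Mir324-null replicate 3 they were positive for 63 and negative for 42, with a median of 0.04. Over all tested genes 5551 were positive and 8359 negative, and without that library 7507 were positive and 6149 negative, so the balance of signs turned with it across the table and not in these lists alone. Groups did not overlap for 3 of the 105 (Gnao1, Ezr and Dynll2), a share near the 2.68% of all tested genes.

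G protein subunits and regulators gave 9 positive and 9 negative values of 18 tested, with a median of -0.02. Gnao1, the alpha subunit abundant in neurons and a relative of the Gnai genes, stood at 2.72, 1.60, 3.68 and 1.08 TPM in Mir324-null replicates 1 to 4, against 7.03, 3.74, 9.12 and 5.33 TPM in WT replicates 1 to 4. Its groups did not overlap, though the highest Mir324-null and lowest WT libraries nearly met, and its log2 fold change of -1.17 (standard error 0.32) did not pass limma's test (adjusted p = 0.981). Rgs3, which speeds the turnoff of Gi subunits, stood at 59.4, 43.5, 35.5 and 63.7 TPM in Mir324-null, against 77.0, 59.8, 74.8 and 93.8 TPM in WT, a log2 fold change of -0.61 (limma adjusted p = 0.981). Rgs19, another regulator of this kind, had 0.35. The most abundant members were Gnas, the stimulatory alpha subunit, with -0.15, Gng5, a gamma subunit, with 0.10 and Gnb1, a beta subunit, with -0.22.

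Polarity and cortical scaffold genes gave 8 positive and 19 negative values of 27 tested, with a median of -0.12 that was 0.04 without Mir324-null replicate 3. Insc encodes inscuteable, which joins LGN to the Par complex, and stood at 1.01, 1.73, 1.28 and 2.12 TPM in Mir324-null replicates 1 to 4, against 0.245, 0.742, 1.30 and 0.694 TPM in WT replicates 1 to 4. It was near the filter on low values, its groups overlapped at WT replicate 3, and its log2 fold change of 0.55 did not pass (limma adjusted p = 0.981). Ezr, the ezrin gene, whose protein links the cortex to actin, stood at 72.9, 81.1, 50.0 and 76.5 TPM in Mir324-null, against 91.0, 84.8, 94.0 and 85.1 TPM in WT, a log2 fold change of -0.36 with groups that did not overlap (limma adjusted p = 0.981). Pard6g had -0.24. Among the most abundant, the small GTPase gene Cdc42 had -0.12, the integrin subunit gene Itgb1 had 0.06 and the integrin-linked kinase gene Ilk had -0.03.

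Dynein, dynactin and LIS1 genes, the force-generating side of the complex, gave 6 positive and 16 negative values of 22 tested, with a median of -0.10 and of -0.02 without Mir324-null replicate 3. Dync1li2, a dynein light intermediate chain, had the largest positive value, 0.77, at 116, 67.1, 80.4 and 110 TPM in Mir324-null replicates 1 to 4, against 74.0, 24.8, 78.2 and 53.7 TPM in WT replicates 1 to 4. Its groups overlapped, with WT replicate 2 far below the rest. Dynll2, a dynein light chain, was at 15.7 to 21.0 TPM in Mir324-null and 21.5 to 26.7 TPM in WT, groups that did not overlap, with a log2 fold change of -0.28 (limma adjusted p = 0.981). Its paralog Dynll1 had 0.12 and Ndel1, a LIS1 partner, had -0.36.

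Spindle assembly and astral microtubule genes gave 10 positive and 12 negative values of 22 tested, with a median of -0.01. Mapre1, which tracks growing microtubule ends, had -0.25, Mapre3 0.09, the clathrin heavy chain gene Cltc 0.05, the condensin subunit gene Ncapg -0.38, the pericentrin gene Pcnt 0.28 and the gamma-tubulin gene Tubg1 -0.15. Planar polarity genes gave 5 positive and 11 negative values of 16 tested, with a median of -0.08 that was 0.08 without Mir324-null replicate 3. The Wnt receptor gene Fzd7 had -0.29, the transducers Dvl1 and Dvl2 had -0.27 and -0.13, and Fjx1 had 0.28. Each of the genes named from these lists had a limma adjusted p of at least 0.981.

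**Figure D5:**
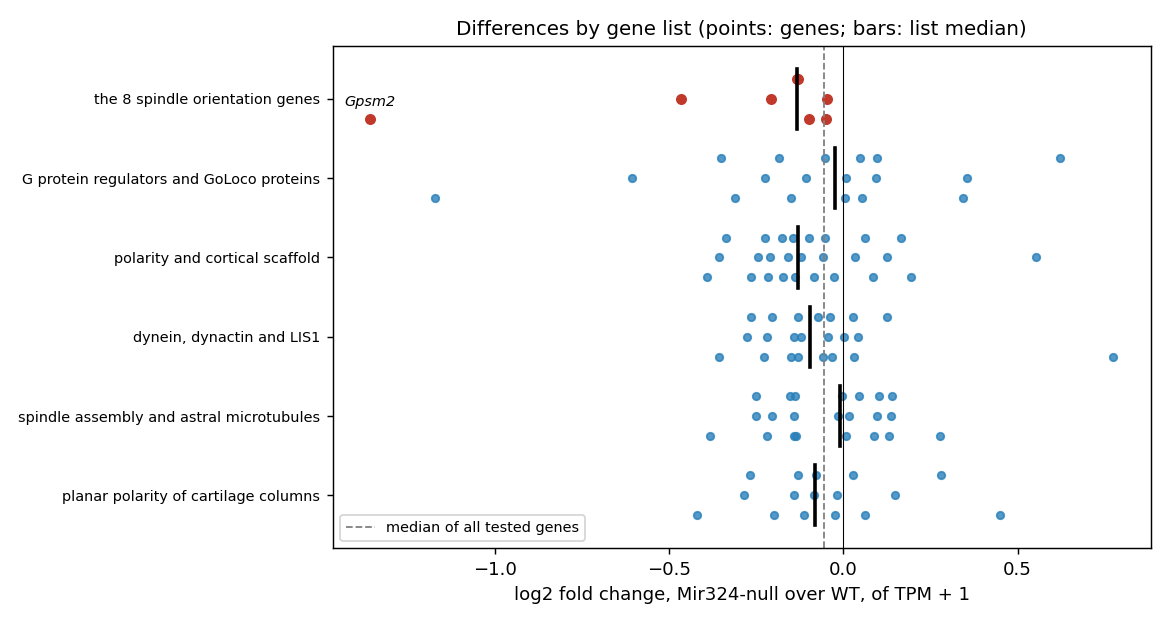
Log2 fold change of TPM + 1, Mir324-null over WT, for the 8 spindle orientation genes and for the tested genes of 5 lists, 1 point per gene, with a black bar at the list median and a dashed line at the median of all tested genes, -0.05. The list medians lie between -0.12 and -0.01, and Gpsm2, at -1.36, lies below every listed gene, with Gnao1 nearest at -1.17.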

How the data were processed

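RNA from costal chondrocytes of 4 Mir324-null and 4 WT mice was sequenced, from total RNA with a low-input NEB kit, per the labels' protocols. The authors deposited TPM, 1 column per library; kallisto and DESeq2 are named, without versions or roles, per the submitters' processing notes, which also name the human build GRCh38 although the identifiers are mouse. The table's 52865 lines held 52325 identifiers, with 273 repeated at identical values and counted once. With the repeats, the deposited column of Mir324-null replicate 3 sums past 1000000, so its unit was entered as other; without them it is TPM like the rest. TPM keeps no depth, so no counting interval is given.

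Identifiers were matched to GENCODE M21 (52220 matched). Genes with at least 1 TPM in 4 libraries were fitted on log2(TPM + 1) with limma 3.58.1 (R 4.3.3; trended prior, genotype only, Benjamini-Hochberg at 0.05). Procedures were tested on simulated data. No pair of libraries had equal TPM at more than 0.769% of tested genes. The members, lists and tests were chosen with earlier results of these data known. Named genes are the 8 members, the markers used, the 3 of smallest p and 3 of highest mean in each list, the 5 most and 5 least correlated with Gpsm2, and its nearest 2 tested genes on each side; some of these are given only in counts, and genes singled out beyond this rule (Clcc1, Gnai3 as a neighbour and Gm27244) were chosen after their values were seen. The alternatives tried were a pseudocount of 0.1, scaling by median of ratios, a filter on the mean (1 TPM), no filter, a replicate block, leaving out each library, and, added after the data were seen, the 5 libraries with Xist.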

Additional observations from a re-analysis of the deposited data

Results flagged for a closer look

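In 35 quantities read in both groups of 4, the highest or lowest library was checked for a gap to its nearest neighbour larger than Dixon's test at 95% allows for that group's range. Of 70 such groups, 8 had a library this far out, where chance gives about 1 in 20. Several quantities reuse the same values, so the 70 checks are not independent and no excess over chance is read. The causes were not tested.

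Gpsm2 in Mir324-null replicate 1 was at 24.0 TPM, above the 9.31 to 10.6 TPM of the other 3 Mir324-null libraries and below every WT library. The ratio of Gpsm2 to Dlg1 in the same library was 0.799, beside 0.267 to 0.348 in the other 3. Gnai3 in Mir324-null replicate 3 was at 41.8 TPM, beside 71.9 to 75.6 TPM in the other 3.

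Mir324-null replicate 3 was also the low library for the summed polarity and cortical scaffold genes, at 565.8 TPM, and for the summed spindle assembly and astral microtubule genes, at 275.7 TPM. In WT, the ratio of Gpsm2 to the summed Gnai genes was 0.180 in replicate 1, summed chondrocyte markers were 43330 TPM in replicate 2, and summed endothelial markers were 16.2 TPM in replicate 3, each far from the other 3 WT libraries.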

How the results depend on the processing

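The log2 fold change of Gpsm2 was between -1.66 and -1.09 over 14 alternatives, negative in each. Gpsm2 was chosen for groups that lie apart. Leaving out libraries or changing the filter could therefore not turn its sign, and no support is drawn from this. The count of genes passing limma's test over all genes, 3 with the chosen settings, was 5 with a pseudocount of 0.1, 0 with no filter on low values, 0 with a mean of at least 1 TPM and 0 in the 5 libraries with Xist, and it ranged from 0 (without WT replicate 4) to 6 (without WT replicate 2) when single libraries were left out, with 1 without WT replicate 3. With the replicate block it was 0. Same-numbered libraries had deviations correlated at -0.0385, 0.114, -0.0474 and 0.108, and only Mir324-null replicates 2 and 4 correlated best with their own number. With so few libraries, these values do not settle if the replicate numbers pair the samples. Of the other machinery genes, 0 passed in each of the 14. At most 6 of all tested genes passed in any of these alternatives, so nothing is read from this. The 3 separated neighbours in the order of levels passed when each library was left out; in the 5 libraries with Xist 0 passed, where the smallest exact p possible is 0.0625, although the differences were 1.46, 1.04 and 2.26. Pard3 minus Numa1 changed sign when a library was left out, from -0.0250 to 0.0720, with -0.0217 without Mir324-null replicate 1, -0.0250 without replicate 2 and -0.0234 without WT replicate 3; the cause was not tested. Depth is unknown.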
